A study of Mus musculus with 16 samples.

Results

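Splicing removes introns from pre-mRNA. The spliceosome that does this is built from small nuclear ribonucleoproteins (snRNPs), and which splice sites it uses is tuned by RNA-binding proteins. SR proteins carry an RNA recognition motif and a tail rich in arginine-serine repeats, bind exonic enhancers and mostly favour exon inclusion, whereas heterogeneous nuclear ribonucleoproteins (hnRNPs) coat nascent transcripts and often act against them. Many genes of both classes hold "poison" exons, whose inclusion sends their own mRNA to nonsense-mediated decay, so that the level of the mRNA is partly set by splicing itself.

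The genes described here are those of the deposited count table whose symbol starts with Srsf, Hnrnp, Sf3a, Sf3b, Prpf or Snrp, without Snrpn and without symbols marked as pseudogenes (-ps), provided that at least 5 counts were present in at least 8 of 16 libraries. Of 71 such rows among the 57010 genes of the table, 65 were members, and all 65 were among the 18227 genes tested. They comprised 11 SR protein genes, 20 hnRNP genes, 9 genes of the SF3A and SF3B complexes of the U2 snRNP, 13 pre-mRNA processing factor (Prpf) genes and 12 Snrp genes, most of them for proteins bound to the snRNP RNAs. The 6 rows left out were Snrpn and 5 pseudogene rows, of which none exceeded 5 counts in any library. Closest to the limit among the members were Srsf12, whose eighth highest library held 13 counts, and Snrpert, where it held 24. Snrpert is listed as a processed pseudogene in the GENCODE vM39 annotation and was kept because its symbol has no -ps; the other 64 members are protein-coding.

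Microglia, the resident macrophages of the brain, were isolated from the olfactory bulb of mice aged 2 months with magnetic beads against CD11b, a surface protein that other myeloid cells also carry. Wild-type (WT) C57BL/6J mice were compared with APP-NL-G-F mice, in which the endogenous App gene carries a humanised amyloid-β sequence with 3 familial Alzheimer's disease mutations, so that every cell expressing App is affected and not microglia alone. The paper gives the WT controls as purchased and does not say that they were littermates, so genotype and origin of the mice may not be separable. Each sex of each genotype gave 4 libraries, numbered as replicates 1 to 4, made from total RNA. The labels do not say whether replicates were separate mice, and the paper's reporting form mentions technical replicates for RNA sequencing. The p-values therefore measure the spread between these libraries.

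Libraries held 9052932 to 18117286 counts, and the members took 0.742 to 0.848% of them. All 15 microglia identity genes were detected in every library, with a summed level of 24796 to 29785 CPM (counts scaled to a common library size, here after TMM normalization) and no member of the list below a Benjamini-Hochberg false discovery rate (FDR) of 0.1 in edgeR's quasi-likelihood test between the genotypes. RNA of other cells was present too. A list of 15 neuron genes, none of them at 0 in any library, summed to 483 to 655 CPM in the WT libraries against 587 to 860 CPM in those of APP-NL-G-F, and 8 of the 15 were higher in APP-NL-G-F. In the same direction, 3 of 8 oligodendrocyte genes were higher, with sums of 233 to 432 and 284 to 419 CPM, and Opalin at 0 in at least 1 library. A list of 22 immediate early genes, which are induced within minutes by stimulation or by cell isolation, moved the other way, with 18 of 22 lower, and is given beside the results below. Fewer cells of a type and less RNA per cell cannot be told apart in such bulk libraries.

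Levels between genes are comparable only per transcript length. Per kilobase of the canonical transcript, the members spanned a wide range in WT libraries, and 6 exceeded 100 CPM per kilobase. Hnrnpa2b1, which binds pre-mRNA and also sorts RNAs for transport, stood highest at 214 CPM per kilobase, followed by Srsf5 at 172 and Hnrnpa1, a classical silencer of exons, at 113. Sf3b2, a scaffold subunit at the branch site, led its complex at 101 CPM per kilobase, ahead of Sf3b1, the subunit that clamps the branch site duplex, at 63.3. Among the Prpf genes Prpf38b was highest at 58.6, and Prpf8, the protein at the catalytic heart of the spliceosome, reached 41.4. Snrpb, a protein of the Sm ring shared by most snRNPs, led the Snrp genes at 51.9. At the low end were Srsf12 at 0.322, Sf3b5 at 2.75, Prpf4 at 2.91, Hnrnpr at 4.46 and Snrpert at 6.42 CPM per kilobase. Hnrnpr owes its place to a canonical transcript annotated at 21475 bases, as it averaged 95.9 CPM in WT. For Sf3b5 the length was 3841 bases, at 10.6 CPM in WT.

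**Figure D1:**
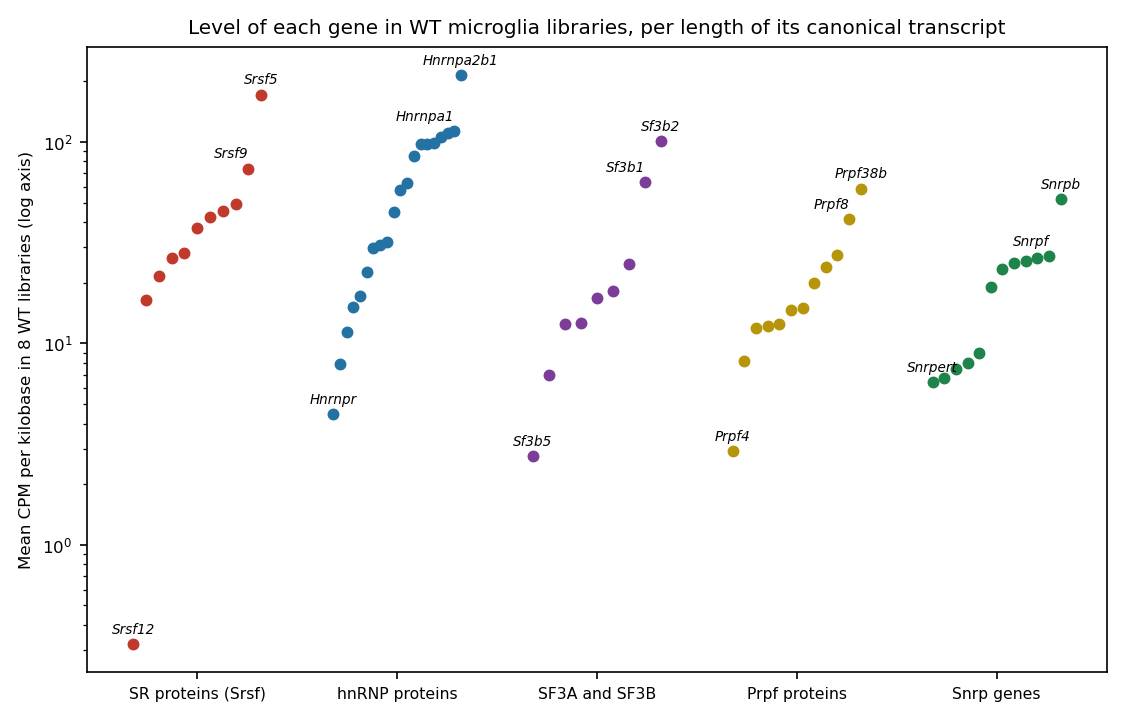
Mean level of 64 of the 65 genes in the 8 WT libraries, in CPM per kilobase of canonical transcript on a log axis, grouped by family and ordered by level within it. Hnrnpa2b1 and Srsf5 stand at the top with 214 and 172 CPM per kilobase and Srsf12 lies far below every other gene at 0.322.

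Comparing the genotypes over both sexes, with sex as an additive term, splicing factor and hnRNP genes differed in 1 direction. Of the 65 members, 18 were lower in APP-NL-G-F at an FDR below 0.1 and 0 were higher, with 23 lower (35.4%, against 11.8% of all genes) and 0 higher at an unadjusted p below 0.05. Among all 18227 genes tested, 7.82% were lower and 6.95% higher at this FDR, so 27.7% of the members stood against 7.82%. Most members are abundant, and precision rises with counts. Among protein-coding genes with a mean log2 CPM of 5 or more, 10.4% were lower, against 16 of 48 members (33.3%) of that level. The differences were modest, the smallest, in Hnrnpa3, having decreased by 9.61% and the largest, in Srsf5, having decreased by 32.8%. With the threshold of the study, which also asks for an absolute log2 fold change above 0.5, only Srsf5 was called, 1 of 65 members against 8.64% of all genes.

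The counts below the FDR differed between families. SR protein genes gave 5 of 11 (45.5%) and hnRNP genes 9 of 20 (45%), against 2 of 9 SF3 genes (22.2%). For Prpf genes, with 1 of 13 (7.69%), and Snrp genes, with 1 of 12 (8.33%), the share was near the 7.82% of all genes. Such counts also depend on precision, and the median standard error was 0.05 for the hnRNP genes and 0.09 for the Snrp genes. A difference between families was not tested. Median log2 fold changes were -0.08 for the SR genes, -0.12 for the hnRNP genes, -0.06 for the SF3 genes, -0.02 for the Prpf genes and -0.06 for the Snrp genes. Over all members the median was -0.07, beside 0.00 for all genes tested, and 52 of 65 values were below 0, compared with 9193 of 18227. The SR genes were split rather than shifted: 5 fell and the other 6 lay between -0.08 and 0.33 without passing the test.

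**Figure D2:**
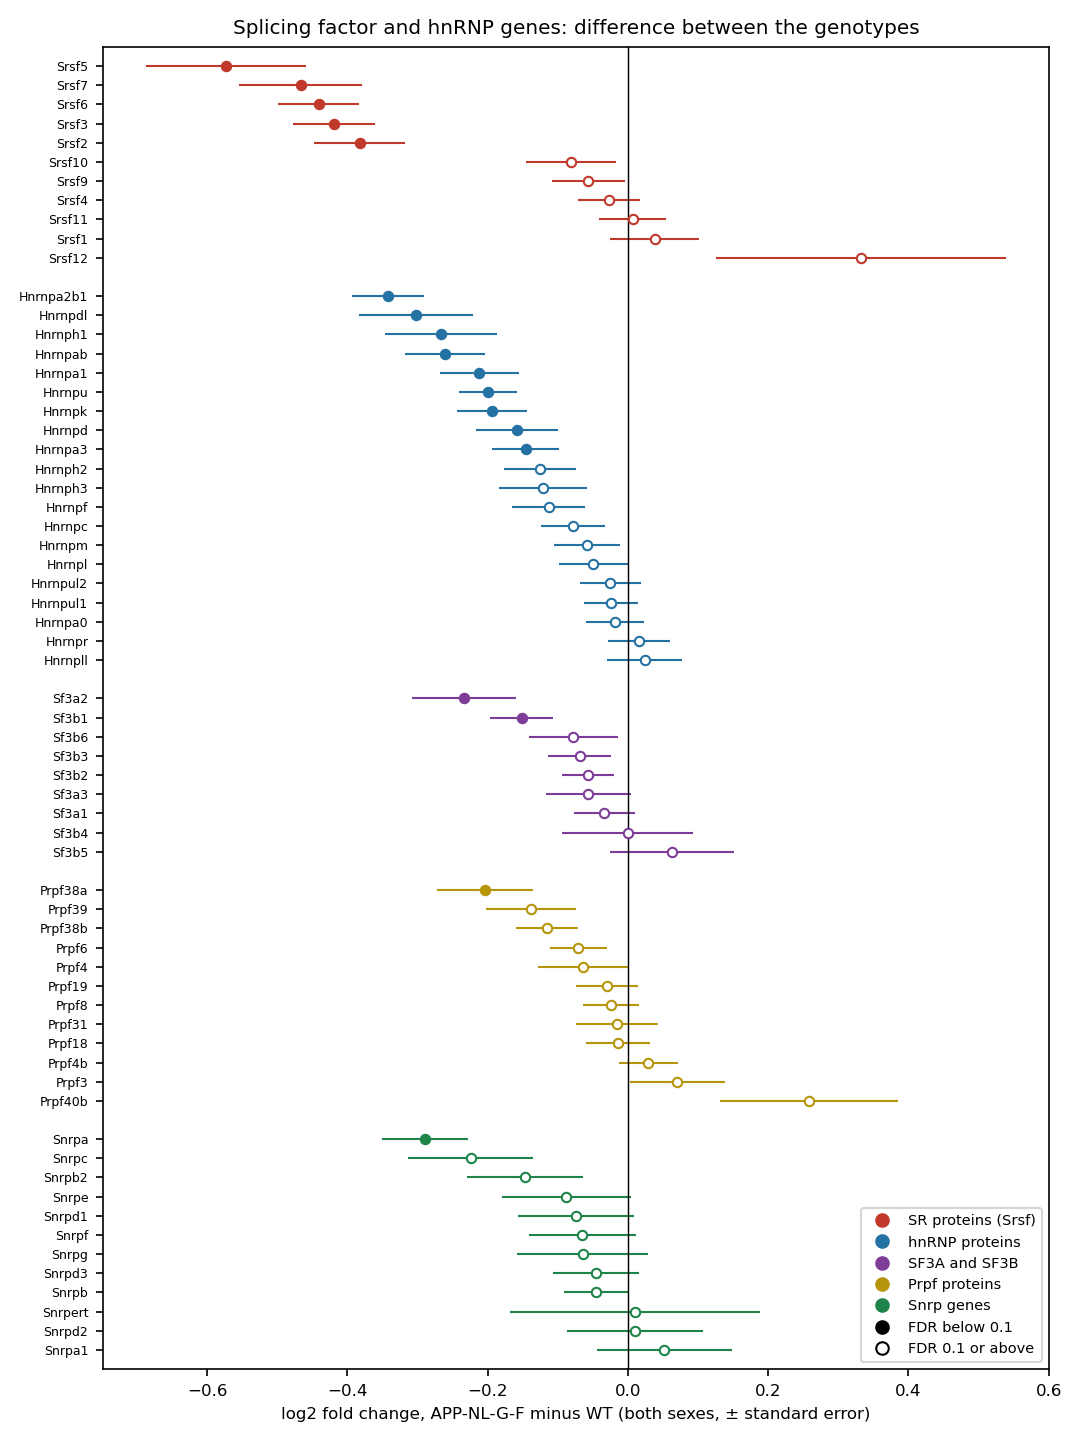
Log2 fold change of APP-NL-G-F minus WT over both sexes for 64 of the 65 genes, with standard errors, grouped by family. Filled points mark the 18 genes with an FDR below 0.1, all to the left of 0. The 5 SR genes at the top, from Srsf5 at -0.57 to Srsf2 at -0.38, are separated from the other 6 of their family.

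The 5 SR genes that fell were Srsf2, Srsf3, Srsf5, Srsf6 and Srsf7. In GRCm39 they lie at chr11:116740723-116744518 on the minus strand (Srsf2), chr17:29251321-29262347 on the plus strand (Srsf3), chr12:80986436-80997630 on the plus strand (Srsf5), chr2:162773299-162780234 on the plus strand (Srsf6) and chr17:80507501-80514879 on the minus strand (Srsf7). Their promoters are shown because these genes moved together. RefSeq windows (GRCm38.p6) run from 250 bases before to 50 bases after the transcription start and were matched for 56 of 65 members, in 73 windows. Capitals mark the half-site of the cAMP response element (TGACG, or CGTCA on the other strand) and the CCAAT box (CCAAT or ATTGG):
Srsf2, chr11:116853045-116853344, minus strand: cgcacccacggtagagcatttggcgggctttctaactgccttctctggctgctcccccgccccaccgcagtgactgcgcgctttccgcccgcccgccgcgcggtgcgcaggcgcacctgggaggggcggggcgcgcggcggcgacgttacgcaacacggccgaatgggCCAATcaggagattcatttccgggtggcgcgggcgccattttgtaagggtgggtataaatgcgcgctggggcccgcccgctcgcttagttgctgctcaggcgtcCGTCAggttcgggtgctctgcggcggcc
Srsf3, chr17:29032410-29032709, plus strand: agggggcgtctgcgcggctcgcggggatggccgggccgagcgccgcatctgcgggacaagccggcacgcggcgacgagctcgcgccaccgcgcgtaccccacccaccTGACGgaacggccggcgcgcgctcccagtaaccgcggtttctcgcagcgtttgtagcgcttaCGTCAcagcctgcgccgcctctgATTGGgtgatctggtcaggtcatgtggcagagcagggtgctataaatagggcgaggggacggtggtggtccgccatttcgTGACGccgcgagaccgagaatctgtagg
Srsf5, chr12:80945249-80945548, plus strand: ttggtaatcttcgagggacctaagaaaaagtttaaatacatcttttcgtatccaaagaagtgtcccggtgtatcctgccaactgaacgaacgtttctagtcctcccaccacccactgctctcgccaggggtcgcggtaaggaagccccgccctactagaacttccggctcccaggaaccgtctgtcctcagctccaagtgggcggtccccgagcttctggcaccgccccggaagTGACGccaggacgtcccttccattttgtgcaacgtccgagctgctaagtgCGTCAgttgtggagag
Srsf6, chr2:162931258-162931557, plus strand: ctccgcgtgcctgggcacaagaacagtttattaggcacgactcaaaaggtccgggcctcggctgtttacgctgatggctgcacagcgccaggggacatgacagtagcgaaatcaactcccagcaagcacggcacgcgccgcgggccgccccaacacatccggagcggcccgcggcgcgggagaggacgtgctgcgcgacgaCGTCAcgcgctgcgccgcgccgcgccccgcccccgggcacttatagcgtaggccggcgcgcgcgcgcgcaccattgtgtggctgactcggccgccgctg
Srsf7, chr17:80207256-80207555, minus strand: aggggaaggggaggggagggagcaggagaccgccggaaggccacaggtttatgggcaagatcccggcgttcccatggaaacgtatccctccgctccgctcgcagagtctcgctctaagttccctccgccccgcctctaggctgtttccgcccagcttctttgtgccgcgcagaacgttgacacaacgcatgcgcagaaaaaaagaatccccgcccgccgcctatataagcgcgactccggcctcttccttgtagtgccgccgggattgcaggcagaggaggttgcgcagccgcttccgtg

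In these windows the half-site began at -143, -81 and 22 bases from the start in Srsf3, at -16 and 34 in Srsf5, at 22 in Srsf2 and at -49 in Srsf6, while Srsf7 held neither motif. CCAAT boxes began at -82 in Srsf2 and at -58 in Srsf3. Over the member windows TGACG was found in 47.9%, compared with 20.8% of all 32851 windows, and CCAAT in 47.9% compared with 37.4%. Member promoters were also richer in G and C, with a median of 60.3% against 52.7%, and GGGCGG (the GC box) occurred in 67.1% against 35.7%. CACGTG (the E-box) was found in 15.1% against 7.15%, TATAAA in 8.22% against 13.6% and TGANTCA (the AP-1 site) in 4.11% against 7.81% of windows. The full cAMP response element, which contains the half-site, was present in 2.74% against 1.79%, the EGR site in 1.37% against 0.612%, and the CArG box, the site of serum response factor, in 1.37% against 1.63%. All motifs were searched on both strands. TGACG was present in 10 of the 18 genes below the FDR and in 30 of the 56 matched members, so holding it did not separate the genes that fell from the rest. A match of letters describes the window and is not evidence of binding.

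Srsf5, the SR gene with the highest level per kilobase in WT, changed most. It stood at 426, 428, 336 and 306 CPM in WT females, at 172, 188, 238 and 221 CPM in APP-NL-G-F females, at 232, 235, 325 and 297 CPM in WT males and at 201, 219, 234 and 246 CPM in APP-NL-G-F males. Every APP-NL-G-F female lay below every WT female, whereas the males overlapped. The log2 fold change was -0.57 ± 0.11 (standard error, edgeR FDR 0.0042, n = 8 against 8).

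Srsf6, which binds exonic enhancers and is a regulator of tau exon choice, separated the genotypes completely. Its level was 152, 147, 142 and 123 CPM in WT females, 94.3, 91.4, 95.8 and 101 CPM in APP-NL-G-F females, 102, 108, 126 and 115 CPM in WT males, and 89.0, 84.9, 94.9 and 91.9 CPM in APP-NL-G-F males. The highest APP-NL-G-F library (101 CPM) was just below the lowest WT library (102 CPM). With a log2 fold change of -0.44 ± 0.06 (edgeR FDR 0.000305), it had the smallest FDR of all members.

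Srsf3, the smallest SR protein, which also links splicing to mRNA export and 3′ end choice, behaved alike. WT females held 145, 140, 125 and 127 CPM and APP-NL-G-F females 100.5, 96.7, 95.2 and 92.7 CPM. WT males held 94.8, 115, 121 and 110 CPM and APP-NL-G-F males 78.4, 77.8, 95.5 and 92.6 CPM. Only WT male replicate 1 fell within the APP-NL-G-F range, and the log2 fold change was -0.42 ± 0.06 (edgeR FDR 0.000414).

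Srsf7, the closest relative of Srsf3 and distinguished from it by a zinc knuckle, showed a wide spread in WT. Its values were 122, 126, 92.0 and 89.1 CPM in WT females, 76.3, 66.9, 67.9 and 69.1 CPM in APP-NL-G-F females, 65.4, 75.1, 88.7 and 74.5 CPM in WT males and 55.8, 53.0, 67.3 and 67.2 CPM in APP-NL-G-F males. WT female replicates 1 and 2 were well above all other libraries. The log2 fold change was -0.47 ± 0.09 (edgeR FDR 0.00274).

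Srsf2 (SC35), the SR protein that marks nuclear speckles, gave 139, 127, 139.8 and 133 CPM in WT females and 95.8, 87.8, 98.8 and 100.1 CPM in APP-NL-G-F females. In males it was 99.4, 103, 118 and 121 CPM in WT versus 79.9, 82.4, 103.1 and 100.6 CPM in APP-NL-G-F. Females were separated by a wide gap and males overlapped in the upper 2 APP-NL-G-F libraries. The log2 fold change was -0.38 ± 0.06 (edgeR FDR 0.00133).

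The other SR genes did not pass the test. Srsf1, the founding SR protein (SF2/ASF), averaged 89.2 ± 5.95 CPM in WT against 91.6 ± 11 CPM in APP-NL-G-F (SD, n = 8 each), with a log2 fold change of 0.04 ± 0.06 (edgeR FDR 0.781). Srsf9 was at 86.0 ± 5.18 and 82.8 ± 6.44 CPM. Srsf12, at 0.563 to 1.46 CPM in WT versus 0.840 to 1.90 CPM in APP-NL-G-F, had the largest positive estimate of all members, 0.33 ± 0.21, and did not pass the test (edgeR FDR 0.356).

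**Figure D3:**
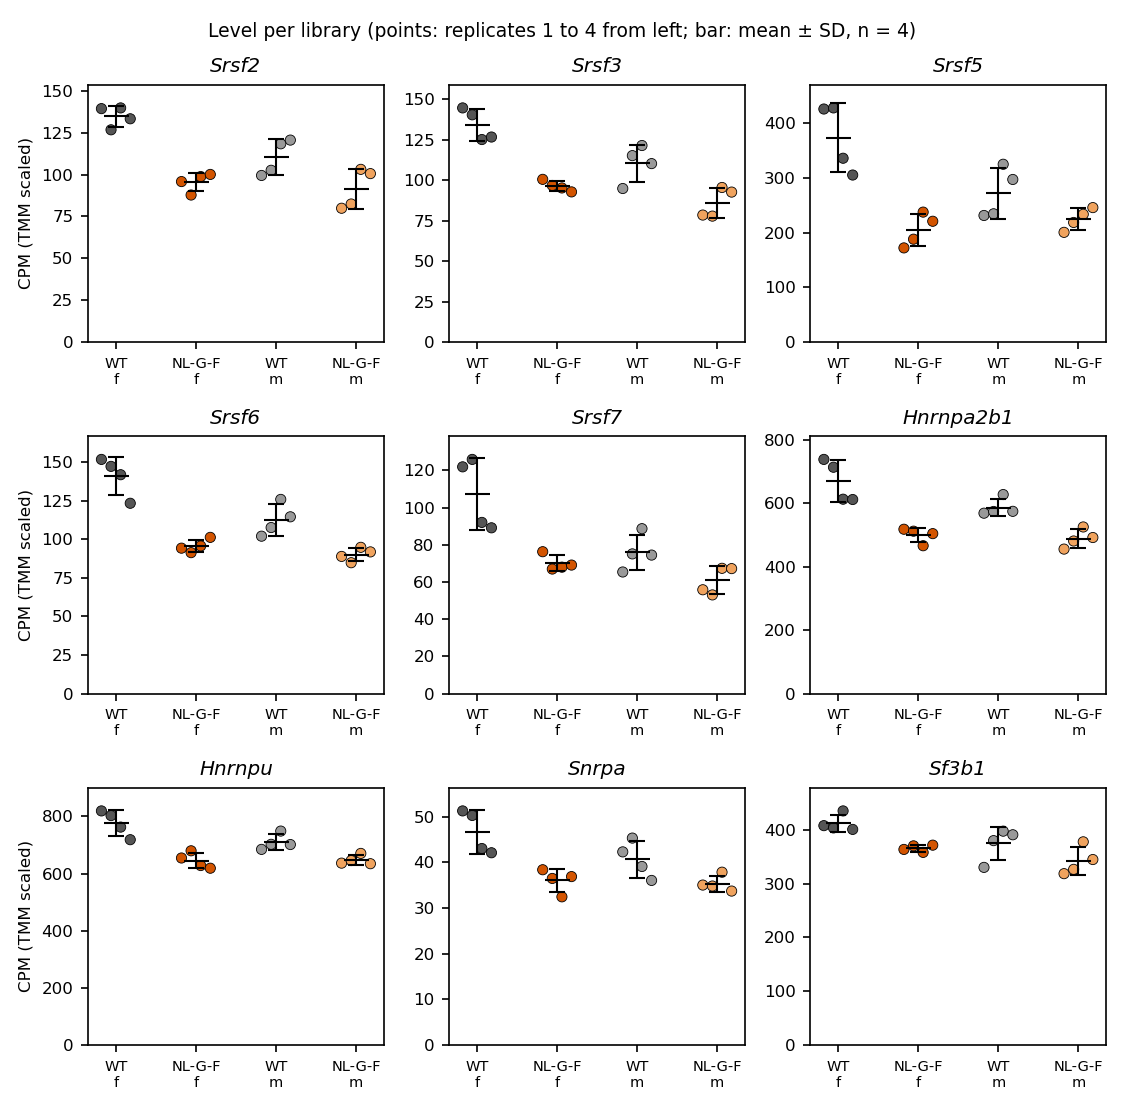
Level in CPM of 9 genes in each of the 16 libraries, by sex (f, m) and genotype; points are replicates 1 to 4 from left to right, and bars give mean and SD of 4 libraries, on axes that start at 0. WT females have the highest mean in each panel, and for Srsf6, Hnrnpa2b1 and Hnrnpu no APP-NL-G-F library reaches the lowest WT library.

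Among the hnRNP genes, Hnrnpa2b1 fell furthest. It was measured at 739, 714, 613 and 612 CPM in WT females, 518, 512, 466 and 504 CPM in APP-NL-G-F females, 569, 574, 628 and 575 CPM in WT males and 456, 481, 525 and 492 CPM in APP-NL-G-F males. No APP-NL-G-F library reached the WT range (lowest WT 569 CPM, highest APP-NL-G-F 525 CPM), and the log2 fold change was -0.34 ± 0.05 (edgeR FDR 0.000605). Hnrnpu, which binds RNA and chromatin at the nuclear scaffold and was the most abundant member in CPM, ranged from 685 to 819 CPM in WT against from 619 to 680 CPM in APP-NL-G-F libraries, again without overlap. Its fall was small but its spread smaller, with a log2 fold change of -0.20 ± 0.04 (edgeR FDR 0.00488). Hnrnpu, Srsf6 and Hnrnpa2b1 were the 3 members of 65 with every APP-NL-G-F library below every WT library, a pattern of 1.15% of all genes.

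The other hnRNP genes below the FDR overlapped between the genotypes. Hnrnpab, a relative of Hnrnpd, ranged from 192 to 241 CPM (median 217) in WT and from 160.0 to 210.1 CPM (median 181) in APP-NL-G-F, at -0.26 ± 0.06. Hnrnpdl, another member of that subfamily, went from 80.9 to 127 CPM (median 116) in WT to 75.8 to 101 CPM (median 88.1), at -0.30 ± 0.08. For Hnrnph1, which binds G-rich stretches, the ranges were 205 to 306 CPM (median 285) and 193 to 248 CPM (median 225), at -0.27 ± 0.08. The upper part of the WT range was thus vacant in APP-NL-G-F, and all 8 APP-NL-G-F libraries lay below the WT median for each of the 3 genes.

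Hnrnpk, which binds C-rich RNA and DNA, fell by 0.19 on the log2 scale, Hnrnpa1 by 0.21, Hnrnpd (AUF1), known for binding AU-rich elements, by 0.16 and Hnrnpa3 by 0.15, with edgeR FDR values of 0.0195, 0.023, 0.0983 and 0.0624. Hnrnpd was close to the threshold and was lost in 7 of 14 other settings and in 12 of 16 fits without 1 library, and Hnrnpa3 was lost in 3 and 7 of them. Of the 11 hnRNP genes that did not pass, Hnrnpr had 95.9 ± 6.31 CPM in WT versus 96.9 ± 4.43 CPM in APP-NL-G-F (SD, n = 8 each). Hnrnpa1, Hnrnpa3 and Hnrnpk share long near-identical stretches with 10, 27 and 2 annotated pseudogene copies (at least 95% identity over 150 bases), whose own counts came to 1.33, 1.92 and 3.88% of the parent's. Their counts could therefore be split with copies, whereas no copy of this kind was found for Srsf2, Srsf6 and Srsf7.

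In the core spliceosome few genes were below the FDR. The shares were 7.69% of Prpf and 8.33% of Snrp genes, near the 7.82% of all genes, and 22.2% of SF3 genes. Snrpa, a protein of the U1 snRNP that also binds and represses the 3′ end of its own pre-mRNA, went from 36.1 to 51.3 CPM (median 42.7) in WT to 32.5 to 38.4 CPM (median 35.8) in APP-NL-G-F, a log2 fold change of -0.29 ± 0.06 (edgeR FDR 0.006). Sf3a2 was at 24.9 to 34.6 CPM and 23.2 to 32.5 CPM, with -0.23 ± 0.07 (edgeR FDR 0.054), and Sf3b1 at 330 to 435 CPM and 319 to 378 CPM, with -0.15 ± 0.04 (edgeR FDR 0.041). Prpf38a, a protein that joins the spliceosome ahead of its activation, was at 19.6 to 25.3 CPM and 17.1 to 22.5 CPM, with -0.20 ± 0.07 (edgeR FDR 0.0684). Of these, Sf3a2 was lost in 2 of 14 other settings and 6 of 16 fits without 1 library, and Prpf38a in 3 and 8 of them. Sf3a2 and Sf3b1 are both subunits of the U2 snRNP, and the other genes of SF3A and SF3B did not pass with them.

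The remaining core genes differed little. Prpf8 averaged 310 ± 14.2 CPM in WT versus 305 ± 13.7 CPM in APP-NL-G-F, Snrpb 60.3 ± 4.19 and 58.5 ± 3.31 CPM, Snrpf 36.1 ± 4.35 and 34.4 ± 3.52 CPM, and Sf3b2 329 ± 13.6 and 316 ± 12.4 CPM (SD, n = 8 each). Prpf4, Prpf4b, Prpf3 and Sf3b5 had log2 fold changes of -0.06, 0.03, 0.07 and 0.06. Prpf38b had -0.12 ± 0.04 with an edgeR FDR of 0.113. Over all members, 38 of 65 estimates lay within 0.1 of 0 on the log2 scale.

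Prpf40b, a U1-associated protein, was the member with the smallest p among those with a positive estimate, 0.26 ± 0.13 (edgeR FDR 0.221). It was at 38.8, 43.1, 44.2 and 61.4 CPM in WT females, 52.6, 58.4, 73.8 and 59.4 CPM in APP-NL-G-F females, 63.8, 36.6, 60.6 and 69.9 CPM in WT males and 67.5, 70.3, 48.0 and 66.6 CPM in APP-NL-G-F males. The 2 lowest libraries of the males, WT male replicate 2 and APP-NL-G-F male replicate 3, were also those with the lowest neuron list sums of their groups, 483 and 587 CPM. The part of neuronal RNA in this estimate was not tested.

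**Figure D4:**
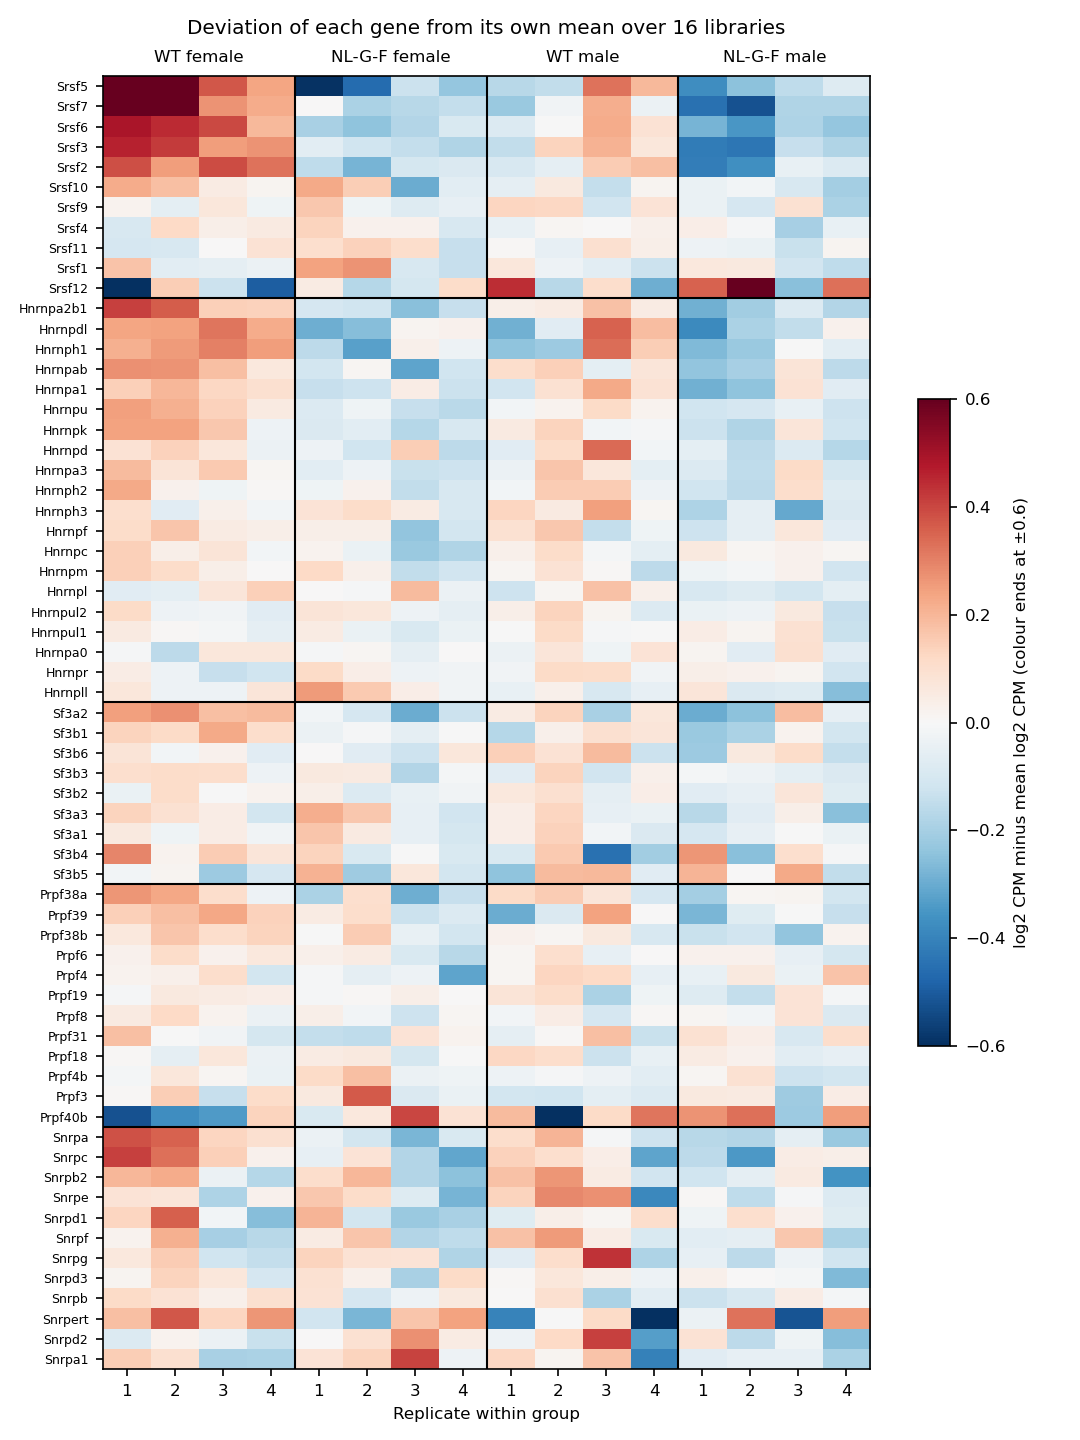
Log2 CPM of each of 64 of the 65 genes minus its own mean over the 16 libraries, with families separated by horizontal lines and genes ordered by genotype difference within each; colours end at 0.6 on either side. The top rows of the SR and hnRNP blocks are red in WT females and mostly blue in APP-NL-G-F libraries.

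Within females, 14 members were lower and 0 higher in APP-NL-G-F at the FDR of 0.1, compared with 6.11% lower and 3.31% higher among all genes. All 14 were among the 18 found over both sexes. The 3 called with the fold threshold (7.15% of all genes) were Srsf5 at -0.87 ± 0.13, Srsf7 at -0.61 ± 0.12 and Srsf6 at -0.56 ± 0.07, with edgeR FDR values of 0.000969, 0.00424 and 0.000512. In these females Srsf5 averaged 374 ± 62.7 CPM in WT versus 205 ± 29.9 CPM in APP-NL-G-F (SD, n = 4 each). Leaving out WT female replicate 1 or WT female replicate 2 reduced the 14 to 9.

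Markers of other cells moved with genotype in the females as well. Of 10 endothelial genes, 7 were lower in APP-NL-G-F females below the FDR, with a median log2 fold change of -1.02, and the list summed to 181, 228, 135 and 103 CPM in WT females and 101, 94.0, 112 and 90.2 CPM in APP-NL-G-F females. Of 9 astrocyte genes, 3 were lower, with a median of -0.54 and sums of 1000.4, 1197, 731 and 627 CPM in WT females, beside 793, 717, 497 and 531 CPM in APP-NL-G-F females. WT female replicates 1 and 2 thus had the highest sums of all libraries for both lists, and no gene of either list was at 0 in any library. In males the endothelial list lay in the other direction, with 1 gene higher below the FDR and a median of 0.82. It summed to 69.1 to 82.9 CPM in WT males, beside 88.2 to 123 CPM in APP-NL-G-F males. The part of these cells in the female result was not tested.

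Within males no member passed in the edgeR test, with 0.252% of all genes called with the fold threshold. The smallest edgeR FDR values were 0.106 for Srsf6 (-0.32 ± 0.07) and 0.108 for Srsf3 (-0.36 ± 0.08), and 11 members (16.9%) had an unadjusted p below 0.05, all lower, where 6.05% of all genes were lower at that p. DESeq2 placed 3 and limma voom 2 members below the FDR in males, and leaving out replicate 3 of the APP-NL-G-F males brought the edgeR count to 6. The share of all genes below the FDR was not counted in these fits. All 18 genes found over both sexes had estimates below 0 in each sex, and in 17 of them the female estimate was the lower one, Hnrnpd being the exception. These genes were chosen as lower over the same libraries, which makes a shared sign likely.

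Whether the genotype difference depended on sex was tested directly by the interaction term, where 0 members passed (0.0274% of all genes called), with 3 (4.62%) at an unadjusted p below 0.05 by edgeR, against 5.94% of all genes, and 0 called by DESeq2. Srsf5 came closest, with an interaction of -0.60 ± 0.18 on the log2 scale (edgeR FDR 0.454), followed by Hnrnph3, which is named for this term alone and ran the other way at 0.29 ± 0.11 (FDR 0.691), and by Srsf6 at -0.24 ± 0.10 (FDR 0.766). A difference between the sexes in the response of these genes was therefore not detected, and the larger count in females is not a test of one.

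**Figure D5:**
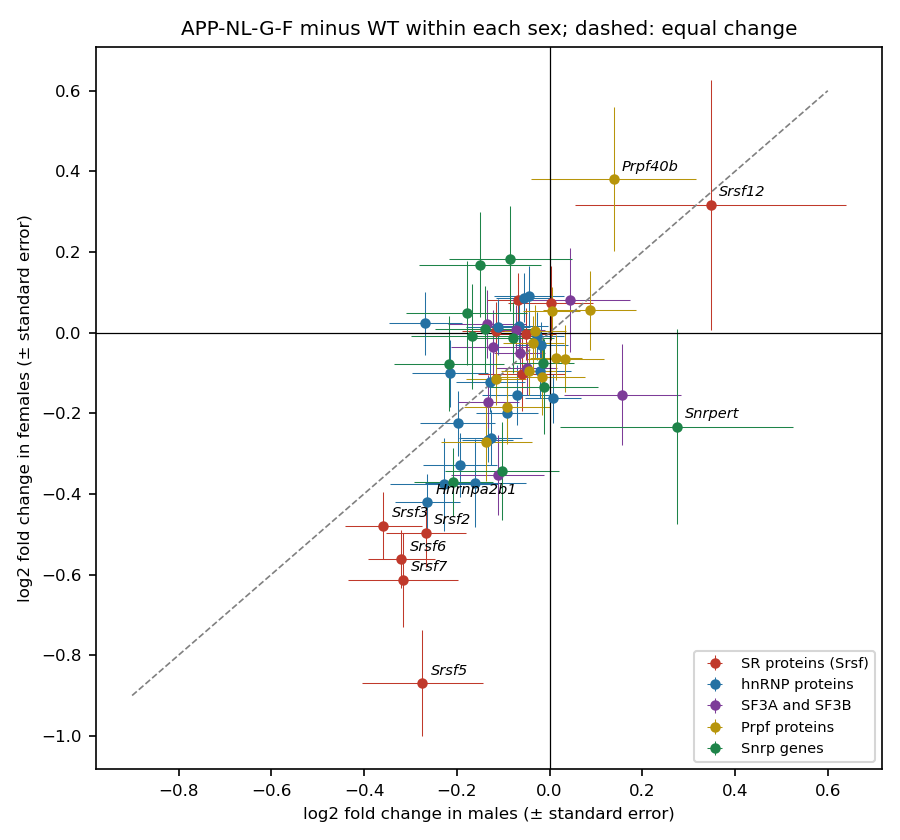
Log2 fold change of APP-NL-G-F minus WT in females (vertical axis) against males (horizontal axis) for 64 of the 65 genes, with standard errors; the dashed line marks equal change. The 5 SR genes lie at the lower left, Srsf5 furthest below the line at -0.87 in females and -0.27 in males.

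Sex itself changed no member at the FDR (0.0604% of all genes called), although 9 members (13.8%, against 4.24% of all genes) were higher in females and 0 lower at an unadjusted p below 0.05 by edgeR, and DESeq2 also called 0. Srsf7 was highest among them, 0.35 ± 0.09 (edgeR FDR 0.434). The 5 SR genes that fell summed to 778 to 984 CPM in WT females, 593 to 780 CPM in WT males, 531 to 595 CPM in APP-NL-G-F females and 504 to 598 CPM in APP-NL-G-F males. WT females held the highest mean of the 4 groups in 17 of the 18 genes below the FDR and in 34 of the 65 members.

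Immediate early genes followed a similar order of groups. Their 22 genes, none at 0 in any library, summed to 14636 to 18717 CPM in WT females, 8475 to 9910 CPM in WT males, 4508 to 8190 CPM in APP-NL-G-F females and 3880 to 8891 CPM in APP-NL-G-F males. APP-NL-G-F male replicates 3 and 4 held 7898 and 8891 CPM, of which only the latter reached the WT male range. The same 2 libraries were the higher pair of their group for Srsf2, Srsf3, Srsf5, Srsf6 and Srsf7. Among APP-NL-G-F females, replicate 4 had the highest sum, at 8190 CPM. It was highest of its group for Srsf2 and Srsf6, lowest for Srsf3 and neither for Srsf5 and Srsf7. Of 14 heat shock genes, 3 were higher and 1 lower below the FDR, and the list summed to 5410 to 9595 CPM in WT against 7006 to 9027 CPM in APP-NL-G-F. The part of these lists, and of the neuron list, in the decrease of the splicing genes was not tested.

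Replicates 1 and 2 carry the library numbers 1 to 8 and replicates 3 and 4 the numbers 9 to 16, and the genotype difference was computed in each set. In replicates 1 and 2, 22 members were lower and 1 higher (Prpf40b) below the FDR, together 35.4% of the members beside 19.9% of all genes in either direction. In replicates 3 and 4, 6 were lower and 0 higher, 9.23% of the members beside 0.525% of all genes, so the number of calls dropped over the whole table. The 6 were Srsf2, Srsf3, Srsf5, Srsf6, Srsf7 and Hnrnpa2b1. All 18 genes found over the 16 libraries were below 0 in both sets. Their choice as lower over these same libraries makes that likely. For Srsf5 the log2 fold change was -0.71 ± 0.17 in the first set and -0.42 ± 0.06 in the second, for Srsf6 -0.49 ± 0.08 and -0.39 ± 0.06, and for Snrpa -0.39 ± 0.06 and -0.18 ± 0.08. Taking replicates 3-4 minus 1-2 as a contrast of its own, which was added after seeing the data, 3 members were lower (1.88% of all genes) and 3 higher (1.95% of all genes). Those lower were Srsf1, Srsf10 and Snrpb2, and those higher were Srsf2, Hnrnpdl and Hnrnph1. Srsf10 and Snrpb2 are named for this count alone. In this contrast 49 of 65 member estimates were below 0 (8716 of 18227 genes), with a median of -0.05 beside 0.01 for all genes. At an unadjusted p below 0.05 by edgeR, 16 members were lower and 6 higher, against 1488 and 1339 of the 18227 genes.

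Genes of splicing outside these prefixes were read from lists of known components. SR proteins are phosphorylated by the Clk and Srpk kinases, and of 12 kinases and phosphatases 2 were lower (16.7%, beside 7.82% of all genes) and 0 higher. Clk1, whose retained introns are spliced out on demand, fell by 0.56 ± 0.09 on the log2 scale (edgeR FDR 0.000912), from 328 ± 52.9 to 220 ± 31.8 CPM (SD, n = 8 each). Of 23 SR-related proteins, 2 were lower (8.70%, near the 7.82% of all genes) and 1 higher. The lower ones were the enhancer-binding pair Tra2a, at -0.39 ± 0.07, and Tra2b, at -0.45 ± 0.10.

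Other splicing regulators were mixed, with 4 of 50 tested lower and 7 higher, which is 8% and 14% beside 7.82% and 6.95% of all genes. Rbm3, a cold-inducible RNA-binding protein, was called lower at -0.54 ± 0.09 (edgeR FDR 0.00154). Khdrbs2 (SLM1), which is mainly neuronal, was called higher at 0.63 ± 0.24 (edgeR FDR 0.0998), at only 1.25 ± 0.422 and 1.92 ± 0.603 CPM. Rbm39, an SR-like coactivator named after its values were seen, fell by 0.40 ± 0.05 (edgeR FDR 0.000184) and was the 1 gene of the 7 splicing lists below the FDR within males (-0.30, edgeR FDR 0.0824). The 7 regulators that were higher, named after their values were seen, were Khdrbs2, Celf2, Elavl3, Rbfox1, Rbfox2, Tia1 and Celf4. Celf2 had the smallest FDR (0.20 ± 0.05, edgeR FDR 0.00995), with Rbfox2 at 0.42 and Tia1 at 0.25. Rbfox1, Elavl3 and Celf4 are, like Khdrbs2, known mainly from neurons. The neuron list was higher in the same libraries, and its part in these values was not tested.

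Of the snRNP, U2 auxiliary and tri-snRNP proteins outside the prefixes, 7 of 42 tested were lower (16.7%) and 0 higher. Sf1, the branch point binding protein, went from 240 ± 18.3 to 201 ± 11.9 CPM and Zrsr2, a U2AF-related protein for minor introns, from 41.4 ± 3.23 to 32.6 ± 2.73 CPM (SD, n = 8 each), in both cases without overlap between the genotypes. The log2 fold changes were -0.26 ± 0.05 and -0.34 ± 0.06 (edgeR FDR 0.00225 and 0.000967). Of 41 proteins of the Prp19 complex, the catalytic steps and the exon junction complex, 6 were lower (14.6%) and 0 higher, with Wbp11 at -0.20 and Yju2 at -0.24. Nonsense-mediated decay genes gave 3 of 12 lower (25%), Pnrc2 at -0.22 and Upf3a at -0.20 among them, and snRNP assembly genes 0 of 19 in either direction, where Wdr77 at 0.20 and Snupn at -0.15 had the smallest p. Medians of these 7 lists ran from -0.07 to -0.01 on the log2 scale, against 0.00 for all genes.

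The strand setting of the counting was not given in the sources used here. Of the 18 members below the FDR, 15 have exons overlapped by a gene on the opposite strand, such as Srsf2 by Mettl23 and Mfsd11, Hnrnpa2b1 by Cbx3 and Nfe2l3 and Hnrnpu by Cox20. The overlaps ran from 26 bases (Prpf38a with Orc1) to 3952 bases (Hnrnpu with Cox20). How often such overlap occurs among the other members or all genes was not counted. Srsf6 and Srsf7 have no such overlap. Gene counts add spliced and unspliced isoforms together, so the values above say nothing of which exons were used.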

How the data were processed

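RNA-seq libraries of CD11b-selected olfactory bulb microglia were analysed from a table of raw counts per gene. Per the labels and the methods of the study, the authors aligned paired-end reads of stranded total RNA libraries using STAR and a customised GRCm39 genome that includes human App, with gene models from gencode vM32, and the counts were deposited without normalization. Library totals of 9052932 to 18117286 counts set the counting precision.

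A gene was kept when 8 or more of the 16 libraries held 5 or more counts (18227 of 57010 genes, 99.86% of counts). Counts were scaled by TMM and tested with edgeR 4.0.16 in R 4.3.3 (quasi-likelihood test, trended dispersion), with sex as an additive term. Contrasts within sexes and the interaction came from a fit of 4 groups. A gene was called at an FDR below 0.1, adjusted over all genes tested, and an absolute log2 fold change above 0.5. Each standard error is the size of the log2 fold change over the root of its F statistic. CPM values are TMM scaled. DESeq2 1.42.0 and limma 3.58.1 served as alternatives, beside other scalings, filters, thresholds, terms and left-out libraries. The procedure was tested on simulated data.

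The members and lists were chosen with earlier results of these data known. Named members are those called in any test, those below the FDR over both sexes, the 2 highest and the lowest per kilobase in each family, the 5 of smallest p in each direction, 12 textbook members and those nearest the count threshold; 1 member is counted but not reported here by itself. From each splicing list, called genes or otherwise the 2 of smallest p are named. Lists of astrocyte (1 of 9 genes lower over both sexes), endothelial (0 of 10), border macrophage (0 of 8) and monocyte and neutrophil genes (0 of 6 tested) were also read. Gene positions, classes, transcript lengths and overlaps came from GENCODE vM39, pseudogene copies from blastn 2.17.0, and promoters from RefSeq.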

Additional observations from a re-analysis of the deposited data

Results flagged for a closer look

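Levels of the members reported under the naming rule above, library totals and the members' share of counts were examined in each group of 4 libraries. A library far from the other 3 was marked (Dixon's ratio of gap to range above its 95% critical value). Hnrnph3, Srsf10 and Snrpb2, named outside that rule, were not examined. Of 140 groups examined, 8 were marked, where chance alone gives about 7, so the number itself is not unusual. In females, Hnrnpa1 was high in APP-NL-G-F replicate 3 (195 CPM, others 172 to 174, ratio 0.929), Prpf4 was low in APP-NL-G-F replicate 4 (12 CPM, others 14.4 to 14.9, ratio 0.844) and Srsf1 was high in WT replicate 1 (101 CPM, others 86.1 to 87.8, ratio 0.894). In WT males, Hnrnpa2b1 was high in replicate 3 (628 CPM, others 569 to 575, ratio 0.9). In APP-NL-G-F males, replicate 3 was low for Prpf3 (21.1 CPM, others 25.2 to 25.4, ratio 0.953) and Prpf40b (48.0 CPM, others 66.6 to 70.3, ratio 0.834) and high for Sf3b2 (339 CPM, others 306 to 311, ratio 0.861), and replicate 4 was low for Hnrnpr (88.8 CPM, others 97.2 to 98.8, ratio 0.845). APP-NL-G-F male replicate 3 thus accounts for 3 of the 8. It is also the library without which 6 members passed in males, in a fit whose count over all genes was not made.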

How the results depend on the processing

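Over both sexes 1 member was called and 18 were below the FDR; without each library in turn these counts stayed at 1 and ran from 14 to 20, and the median log2 fold change from -0.08 to -0.04. With the FDR alone, 18 members were called over both sexes and 14 in females. From replicates 1 and 2 only, 2 were called over both sexes, 7 in females, 1 for the interaction and 1 for sex, with 13 below the FDR in males. From replicates 3 and 4 only, 0 were called over both sexes and 0 in females, with 6 and 5 below the FDR. In males, where the count below the FDR was 0, DESeq2 gave 3, limma voom 2, no low count filter 6, a term for the 2 sets of replicates 3, robust dispersion 2, and left-out libraries 0 to 6 (6 when replicate 3 of the APP-NL-G-F males was left out). With no low count filter 1 member was called for the interaction. Leaving out libraries gave 9 to 17 members below the FDR in females, with 9 without WT female replicate 1 or replicate 2. Among these refits, counts over all genes were made only for the both-sexes test in each set of replicates. A change in the other member counts can therefore not be read as particular to the members. Causes were not tested. Equal replicate numbers did not pair the libraries (24 correlations of deviations from group means, -0.33 to 0.29, median 0.034, 8 above 0.1); with a replicate block, 19 members were below the FDR over both sexes, 17 in females and 0 in males. Of the 18 genes below the FDR, 6 stayed below it in all 14 other settings and 16 left-out fits, namely Srsf2, Srsf3, Srsf5, Srsf6, Srsf7 and Hnrnpa2b1, and none changed sign; the 12 others were lost in at least 1, Hnrnpd, Hnrnpa3, Prpf38a and Sf3a2 most often, in up to 12 left-out fits. Of the other 16 named members, 8 changed sign in at least 1 fit. Few counts limit Srsf12 and Snrpert.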
